A study of Mus musculus with 38 samples.

Results

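The binding of SOX2, HSF1 and HSF2 was examined at 10 genes that carry or answer the LIF, BMP and FGF signals of mouse embryonic stem cells (mESCs): Lifr, Il6st, Stat3, Socs3, Id1, Id2, Id3, Spry2, Spry4 and Dusp6. A site was counted as a gene's own where an interval of a factor's score table lay in the gene's record or within 20 kb of a start of its transcripts (mm10, GENCODE M21 basic set). By this rule 15 of 15081 SOX2 sites, 4 of 1726 HSF1 sites and 6 of 2135 HSF2 sites were taken, 25 of 18942 in all. Of the 10 genes, 9 had at least 1 site and Id2 had none in any of the 3 lists.

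LIF keeps mESCs self-renewing through a receptor made of LIFR and the shared subunit gp130, the product of Il6st. The receptor activates the transcription factor STAT3, which switches on Socs3, a feedback inhibitor of the receptor's kinases. BMP acts through SMAD proteins on the Id genes, whose products block the basic helix-loop-helix factors that drive differentiation. FGF signals through the ERK kinases, which push mESCs towards differentiation and induce their own brakes, the Sprouty proteins SPRY2 and SPRY4 and the ERK phosphatase DUSP6. SOX2 is a pluripotency factor, and HSF1 and HSF2 are the heat shock factors, which bind arrays of inverted GAA units known as heat shock elements.

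CUT&Tag, in which an antibody guides a transposase to the DNA around a bound protein, was used on JM8 cells, a mESC line grown in serum with ESGRO, a LIF preparation. Cells were either asynchronous (A) or mitotic (M), the latter collected by shake-off after 6 h in 50 ng/ml nocodazole, which stops cells in mitosis. SOX2, HSF1 and endogenous HSF2 were profiled in wild-type JM8 cells. In HSF2 knockout JM8 cells, stably overexpressed full-length HSF2 with a HaloTag (Halo-HSF2) was profiled with anti-HSF2. An HA-tagged Halo-HSF2, which the paper lists as a separate construct, was profiled with anti-HA in knockout cells. Halo-H2DBD, which holds the DNA-binding domain and nuclear localization signals of HSF2, was also profiled there with anti-HA. These are 12 of the 19 conditions of the series, with 2 libraries each and 38 libraries in all. No condition changed LIF, BMP or FGF, and no transcript was measured.

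Each value was the authors' mean for a condition, as its column header states, given as spike-in-scaled coverage per base of the site. It was read here as the mean of the condition's 2 libraries. The methods also describe setting the asynchronous sample to 1, and whether that step was applied to each deposited table could not be determined. Every log2 M/A, and every count of sites higher in M, rests on that scaling and could shift as a whole with it. Replicates were therefore not separable: no SD or test could be given, the depth behind a value was unknown, and the differences below describe the averaged tracks. The change between phases is given as log2 M/A, without a pseudocount. A site with 0 in either phase had no ratio, and 14264 of 15081 SOX2 sites had a ratio. Shares of sites by direction or size of change are over sites with a ratio. A rank of 1 is the highest signal of a list in that phase. Levels of different antibodies are not on a common scale. IgG and HSF2 knockout signals at these sites were not analysed here.

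The 25 sites were spread unevenly over the pathways. SOX2 had sites at 9 of the 10 genes, and 34.9% of all 21951 protein-coding genes had a SOX2 site by the same rule. HSF1 had sites at 4 of 10 (Lifr, Socs3, Id3 and Spry2) beside 9.82% of coding genes, and HSF2 at 5 of 10 (Stat3, Socs3, Spry2, Spry4 and Dusp6) beside 14.3%. The 10 genes were chosen with earlier results of these data known, so these shares do not test for an excess of sites. Socs3 and Spry2 were the genes with a site in all 3 lists, and Il6st and Id1 had SOX2 sites only. A listed gene's start was the nearest coding start for each of the 25 sites. At Socs3, however, the start of Pgs1 also lay within 20 kb of all 5 sites, and Cox4i2 lay within 20 kb of the downstream Id1 site.

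**Figure D1:**
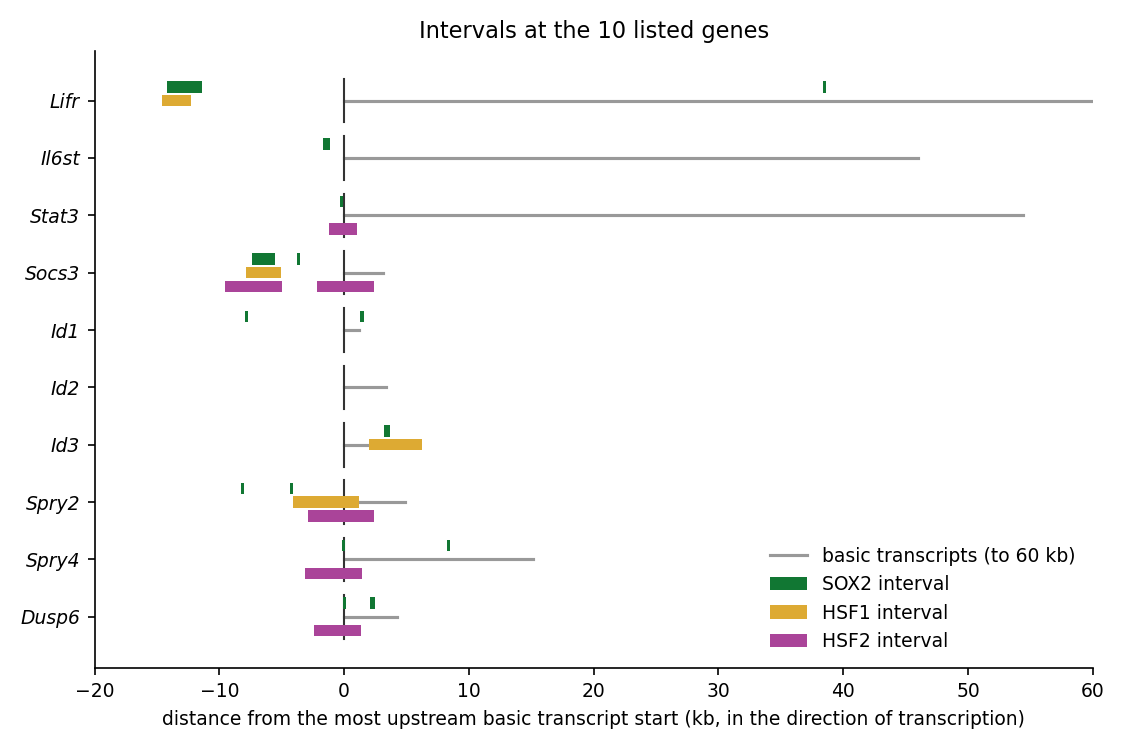
Positions of the SOX2 (green), HSF1 (yellow) and HSF2 (purple) intervals at the 10 listed genes, in kb from the most upstream start of the basic transcripts in the direction of transcription. Grey lines are the transcripts, drawn to 60 kb, and intervals under 0.25 kb are drawn 0.25 kb wide so that they can be seen. 5 of the 6 HSF2 intervals lie over a start, most SOX2 intervals lie away from it, and the Id2 row is empty. The whole lists are placed alike: 1527 of 2135 HSF2 intervals lie over a coding start, and 14823 of 15081 SOX2 intervals do not.

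The sequences below are shown because they hold the motif matches of the sites described below, or because a site over or near a start held none. They were read from GRCm38 (mm10), plus strand, 5′ to 3′, and capitals mark matches on either strand to any of 7 motifs. These were the SOX core ACAANG, the SOX-OCT composite TTGTNATGC, the octamer ATGCAAAT bound by OCT4, the ESRRB element CAAGGTCA, the STAT element TTCNNNGAA, the GC-rich SMAD element GGCGCC and the heat shock element of 3 inverted GAA units set 2 bases apart. Except for whole intervals, each sequence runs from 10 bases before the outermost match of the motif named to 10 bases after it. A match is a description of the letters and not a measured contact.

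SOX2 sites of the LIF receptor genes and of the receptor's inhibitor held octamers and ESRRB or STAT elements. At Lifr 169 bases lay between the octamers and the nearest STAT element, and the proximal Socs3 site held no octamer. The Lifr pairs lay in its upstream SOX2 and HSF1 sites at chr15:7115507-7115554 and chr15:7115852-7115917, the Il6st sequence in its SOX2 site at chr13:112462524-112462585, and the Socs3 sequences in its 2 SOX2 sites at chr11:117976215-117976281 and chr11:117972796-117972920.
Lifr STAT pair: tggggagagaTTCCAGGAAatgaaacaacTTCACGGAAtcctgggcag
Lifr octamer pair: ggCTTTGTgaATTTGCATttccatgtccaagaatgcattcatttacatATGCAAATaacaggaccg
Il6st ESRRB and octamer: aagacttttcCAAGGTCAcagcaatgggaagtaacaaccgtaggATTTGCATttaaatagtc
Socs3 STAT and octamer: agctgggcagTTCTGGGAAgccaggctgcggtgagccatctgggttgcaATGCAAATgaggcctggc
Socs3 ESRRB pair: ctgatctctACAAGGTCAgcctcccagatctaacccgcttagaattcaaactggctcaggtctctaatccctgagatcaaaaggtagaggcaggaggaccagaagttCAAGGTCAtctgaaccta

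In the Lifr site the STAT elements of the pair were 10 bases apart and the octamers 30 bases apart, on opposite strands. In Il6st 26 bases separated the ESRRB element from the octamer, and in the distal Socs3 site 30 bases separated the STAT element from the octamer. In the proximal Socs3 site the ESRRB elements were 89 bases apart, and the element nearer the Socs3 start overlapped a SOX core.

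The remaining sequences come from the Id, Spry2, Dusp6 and Stat3 sites. They are the STAT element of the Id3 site (chr4:136146861-136146889), the SOX cores of the upstream Id1 site (chr2:152728313-152728424), the ESRRB element of the nearer Spry2 SOX2 site (chr14:105901014-105901041) and the heat shock element of the Spry2 HSF1 site (chr14:105899936-105899968). The Stat3 SOX2 interval (chr11:100939712-100939810) and the part of the Dusp6 SOX2 interval before its start (chr10:99263189-99263230) held no match to any of the 7 motifs and are shown for that reason.
Id3 STAT: gatgggaaacTTCTTTGAAatgcatcaca
Id1 SOX: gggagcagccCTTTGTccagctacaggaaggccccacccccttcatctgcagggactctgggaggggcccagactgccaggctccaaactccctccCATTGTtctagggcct
Spry2 ESRRB: tcttgataagTGACCTTGagcttccggc
Spry2 heat shock element: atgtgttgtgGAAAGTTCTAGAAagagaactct
Stat3 whole interval: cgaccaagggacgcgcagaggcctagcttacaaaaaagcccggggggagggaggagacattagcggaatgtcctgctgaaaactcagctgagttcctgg
Dusp6 before the start: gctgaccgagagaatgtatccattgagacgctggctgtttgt

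The receptor genes of the LIF pathway carried strong SOX2 sites that were lower in mitosis. Upstream of Lifr, which encodes the LIF-binding subunit, a SOX2 interval of 2774 bp (chr15:7115362-7118135) lay 11424 bp before the nearest start, inside the gene record but outside the basic transcripts. Its signal was 72.9 in A (rank 468 of 15081) and 53.3 in M (rank 1547), and log2 M/A was -0.45. Upstream of Il6st (chr13:112462349-112462972), 1098 bp before the start, the signal was 58.4 in A (rank 739) and 53.9 in M (rank 1520), with log2 M/A at -0.12. Both sites thus kept most of their signal but dropped in rank. Over the whole list the median SOX2 signal was 8.74 in A and 10.7 in M. Another Lifr interval, 49 bp long and intronic (chr15:7168012-7168060), was weak, at 2.04 in A and 2.95 in M.

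At Stat3, which encodes the signal transducer of the pathway, the SOX2 interval (chr11:100939712-100939810) was 99 bp wide and lay 172 bp before the start. Its signal was 35.0 in A (rank 1706) and 22.1 in M (rank 4302), which is a change of -36.7% and a log2 M/A of -0.66. At 16.2% of the SOX2 sites with a ratio log2 M/A was lower still. No HSF1 site was found at Stat3.

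Socs3 had sites of every factor, and SOX2 signal there was similar or higher in mitosis. The proximal SOX2 site (chr11:117972737-117972985), 3551 bp before the start, had 24.2 in A and 24.6 in M. The distal SOX2 site (chr11:117974737-117976610), 5551 bp before the start, had 32.4 in A (rank 1924) and 43.4 in M (rank 2036, log2 M/A 0.42). This distal region was shared by the 3 lists: the HSF1 interval (chr11:117974263-117977075) and the longer HSF2 interval (chr11:117974194-117978775) both covered all 1874 bp of the SOX2 interval. Over each factor's own interval there, log2 M/A was 0.42 for SOX2, -0.58 for HSF1 and 0.14 for endogenous HSF2.

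The Id genes, targets of BMP, differed from each other in SOX2. Id3 had the strongest SOX2 site of the 10 genes, an interval of 449 bp (chr4:136146701-136147149) 3204 bp downstream of the start and past the end of its transcript. Its signal was 93.2 in A (rank 266) and 108.0 in M (rank 509), and log2 M/A was 0.21, although the interval held no SOX core. Id1 had a weak site on either side. The site 7717 bp upstream (chr2:152728311-152728534) had 4.0 in A and 12.8 in M, with log2 M/A at 1.68, the highest of the 15. The site 1285 bp downstream of the start (chr2:152737536-152737859) had 7.73 in A and 4.96 in M, or -0.64 as log2 M/A. At Id2 the nearest SOX2 site lay 26842 bp from a start, with 4.90 in A and 7.02 in M, and the nearest HSF1 and HSF2 sites lay 263065 bp and 262576 bp away.

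At the feedback inhibitors of FGF signaling, SOX2 sites over a start were higher in M and those away from a start went both ways. At Dusp6, the ERK phosphatase gene, the SOX2 interval over the start (chr10:99263189-99263387) had 38.2 in A (rank 1500) and 87.9 in M (rank 704), and log2 M/A was 1.20. An intronic Dusp6 interval (chr10:99265339-99265712), 2108 bp into the gene, had 22.3 in A and 35.6 in M, with log2 M/A at 0.68. The Dusp6 sites were therefore both higher in M.

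At Spry4 the SOX2 interval over the start (chr18:38601378-38601626) had 34.9 in A (rank 1711) and 84.3 in M (rank 746, log2 M/A 1.27). A Spry4 intronic interval of 24 bp (chr18:38593028-38593051) went the other way, with 10.1 in A and 4.23 in M, and log2 M/A was -1.26, the lowest of the 15. That value averages very few bases, and its depth is unknown. The start interval also overlapped the annotated gene AC133601.1.

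Spry2 had no SOX2 interval over its start. The nearer of its upstream sites (chr14:105900978-105901101), 4159 bp away, had 13.9 in A and 7.61 in M, with log2 M/A at -0.87. The farther site (chr14:105904878-105905026), 8059 bp away, was the weakest of the 15, with 1.30 in A and 1.89 in M, or 0.55 as log2 M/A.

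**Figure D2:**
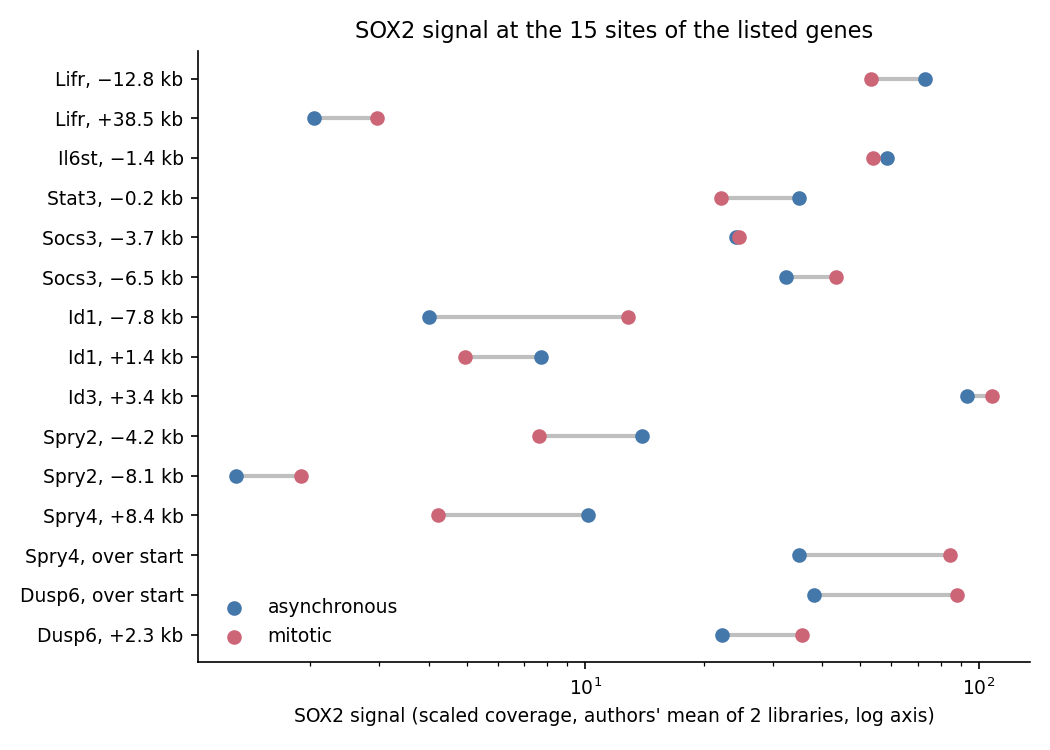
SOX2 signal (scaled coverage, authors' mean of 2 libraries, log axis) in asynchronous (blue) and mitotic (red) cells at the 15 SOX2 sites, labelled by gene and by distance of the interval's centre from the most upstream basic start. The intervals over the Spry4 and Dusp6 starts lie near 35 and 38 in A and near 84 and 88 in M. The upstream Lifr site and the Il6st and Stat3 sites lie lower in M than in A, and the weak intronic Lifr site lies higher.

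Over the 15 SOX2 sites, 9 were higher in M and 6 were lower, against 63.4% higher in M among all 14264 sites with a ratio. Relative to the median of the whole list (0.34), the split was 7 of 15 above (46.7%), in place of the 9 above 0. A log2 M/A of at least 1 was seen at 3 of 15 member sites and at 26.8% of all sites, and one of -1 or below at 1 of 15 and at 10.0% of all sites. The median log2 M/A was 0.21 at the member sites (95% order-statistic interval over sites -0.64 to 0.68) and 0.34 over the list, where the middle 50% of sites ran from -0.33 to 1.06. That interval describes the spread over sites of named genes, some with 2 sites each, taken as if independent. It does not measure the uncertainty of the change between phases. These counts were near those of the list. Member sites were strong: the median signal in A was 24.2 against 8.74 over the list, and 9 of the 15 were in the strongest 25% of the list by the mean of A and M. All sites of that 25% had a median log2 M/A of 0.49, with 74% higher in M. The 9 member sites among them had a median of 0.21.

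The intervals at the starts of Spry4 and Dusp6 were the 2 SOX2 member sites over a coding start. All 258 such SOX2 sites had a median log2 M/A of 0.47, and 31.2% of those with a ratio reached 1, against a median of 0.33 and 26.7% for the other sites. The log2 M/A at Spry4 and Dusp6 was above that at 80.3% and 78.6% of all SOX2 sites.

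HSF1 was lower in mitosis at each of its 4 sites, as at most of its list. At Lifr (chr15:7114981-7117308) the HSF1 signal was 6.65 in A (rank 807 of 1726) and 3.88 in M (rank 912), and log2 M/A was -0.78. At Id3 (chr4:136145510-136149735), an interval of 4226 bp that overlapped the end of the gene record, it was 3.48 in A and 2.09 in M, with log2 M/A at -0.73. At the distal Socs3 region it was 4.67 in A (rank 1111) and 3.11 in M (rank 1107, log2 M/A -0.58). At Spry2 (chr14:105895596-105900918), the HSF1 member site over a start, it was 3.11 in A and 2.33 in M, and log2 M/A was -0.42.

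Of the 4 HSF1 sites 0 were higher in M, against 8.11% of all HSF1 sites. Their median log2 M/A was -0.66 (range -0.78 to -0.42), close to the -0.62 of the list, and 2 of 4 lay above that median. None was among the strongest 25% of the list. The authors' list of HSF1 intervals carries another pair of means whose scaling is not given in the sources used here. With those means the log2 M/A at these sites was -4.55 at Lifr, -2.83 at Socs3, -2.22 at Spry2 and -1.42 at Id3, with -2.41 as the median of the list. The size of the HSF1 difference thus depended on which deposited pair was read, and its direction did not at these 4 sites.

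Endogenous HSF2 was higher in mitosis at its 6 sites, against 72.3% of its list. The Stat3 interval over the start (chr11:100938497-100940717) was the strongest of them, with 6.03 in A (rank 677 of 2135) and 7.56 in M (rank 731), with log2 M/A at 0.33. The Dusp6 interval over the start (chr10:99260837-99264565) had 2.09 in A (rank 1759) and 3.49 in M (rank 1740, log2 M/A 0.74). The Spry2 interval over the start (chr14:105894387-105899676) had 2.45 in A and 3.98 in M, and log2 M/A was 0.70.

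The Socs3 interval over the start (chr11:117966754-117971399) had 2.30 in A and 3.15 in M, with log2 M/A at 0.46. The distal Socs3 interval had 2.89 in A and 3.19 in M, or 0.14 as log2 M/A. The Spry4 interval over the start (chr18:38599993-38604583) had 1.84 in A (rank 1842) and 2.24 in M (rank 2014), and log2 M/A was 0.28. Apart from Stat3, these were weak HSF2 sites: 5 of the 6 were in the weakest 25% of the list, whose own median log2 M/A was 0.71. Of all HSF2 sites in that 25%, 82.4% were higher in M, and of all HSF2 sites over a coding start, 79.6% were. The list combines peaks called in asynchronous and in mitotic cells, so a site can be listed through its mitotic signal alone. The median over the 6 was 0.39 (range 0.14 to 0.74) against 0.49 over the list, and 2 of 6 lay above the list's median. Read from the other pair of means in the authors' list of HSF2 intervals, the 6 values ran from 0.17 to 0.83.

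The knockout lines that carry HSF2 constructs gave larger mitotic ratios at Dusp6 and Spry4 than endogenous HSF2, and at Stat3 2 of the 3 construct profiles were lower in M. With anti-HSF2, Halo-HSF2 signal at Spry4 was 0.926 in A and 3.07 in M, with log2 M/A at 1.73. At Dusp6 it was 1.06 in A and 2.99 in M, or 1.496 as log2 M/A. These ratios were above those of 90.1% and 85.4% of sites, whereas the endogenous HSF2 ratios at Spry4 and Dusp6 were above 39.5% and 61.2%.

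With anti-HA, Halo-HSF2 signal at Dusp6 was 0.686 in A and 2.22 in M, and log2 M/A was 1.70, above 97.1% of sites. At Spry4 it was 0.597 in A and 1.32 in M, with log2 M/A at 1.14, above 86.1%. For Halo-H2DBD the Dusp6 signal was 1.13 in A and 1.98 in M, or 0.81 as log2 M/A, and the Spry4 signal was 1.03 in A and 1.80 in M, and log2 M/A was 0.80. Both lay above at least 91.8% of the Halo-H2DBD ratios. The asynchronous signals at both starts were among the 3 lowest of the 6 sites in each of these profiles.

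Stat3 had the highest asynchronous signal of the 6 sites in each of the 4 HSF2 profiles. With anti-HSF2, Halo-HSF2 there was 3.96 in A (rank 133) and 2.66 in M (rank 937), with log2 M/A at -0.57. With anti-HA, the HA-tagged Halo-HSF2 was 2.18 in A (rank 521) and 3.48 in M (rank 361, log2 M/A 0.68). Halo-H2DBD was 3.25 in A (rank 293) and 2.76 in M (rank 503), and log2 M/A was -0.24. Stat3 was thus lower in M in 2 of the 4 profiles. The anti-HSF2 and anti-HA profiles of full-length Halo-HSF2 had opposite signs, and both the construct and the antibody differed between them.

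At the start of Socs3, log2 M/A was 0.72 for Halo-HSF2 with anti-HSF2 (1.57 in A and 2.59 in M), 0.55 with anti-HA (1.38 and 2.02) and 0.28 for Halo-H2DBD (1.58 and 1.93). At the distal Socs3 interval it was 0.67 (1.48 and 2.35), 0.36 (0.877 and 1.13) and 0.34 (1.20 and 1.52) in the same order. At Spry2 it was 0.92 with anti-HSF2 (0.882 in A and 1.67 in M), 0.27 with anti-HA (1.08 and 1.30) and 0.016 for Halo-H2DBD (1.26 and 1.28). Socs3 and Spry2 were thus above 0 in every profile, although the Spry2 value for Halo-H2DBD differed by 1.09% between phases.

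Halo-HSF2 with anti-HSF2 was higher in M at 5 of 6 sites (79.7% of all sites), with a median log2 M/A of 0.82 against 0.64 over the list. With anti-HA it was higher at 6 of 6 (86.3% of all sites), with a median of 0.62 against 0.57. Halo-H2DBD was higher at 5 of 6 (58.6% of all sites), with a median of 0.31 against 0.098. Relative to each list's median, the numbers above were 5, 3 and 4 of 6.

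**Figure D3:**
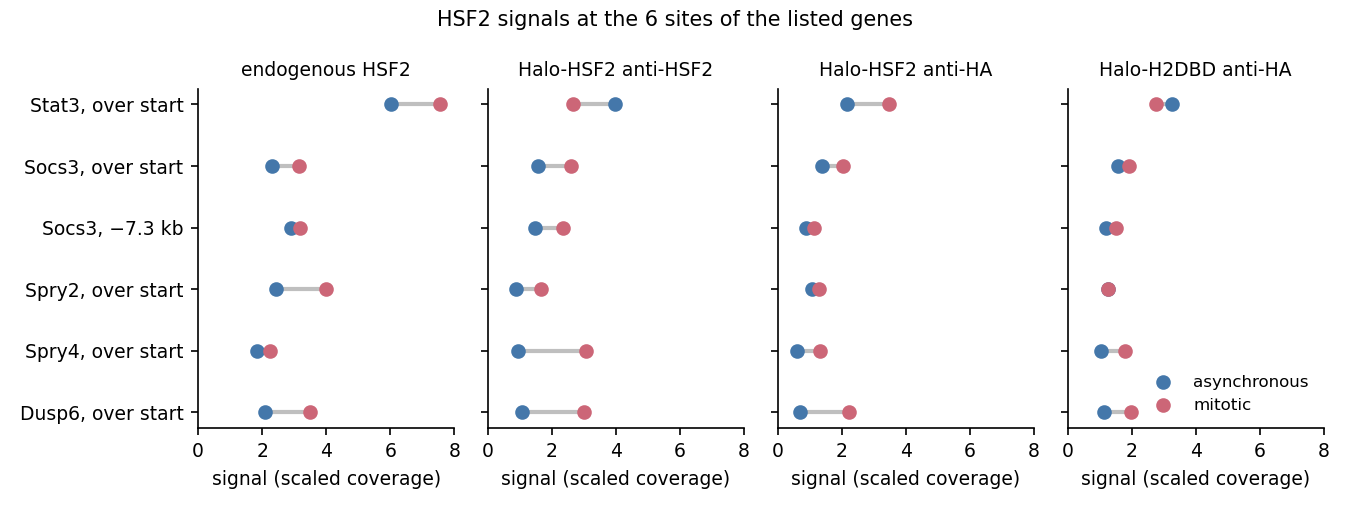
Signal (scaled coverage, authors' mean of 2 libraries) of endogenous HSF2, of Halo-HSF2 with anti-HSF2 and with anti-HA, and of Halo-H2DBD with anti-HA, in asynchronous (blue) and mitotic (red) cells at the 6 HSF2 sites. Stat3 is highest in A in every panel and lies lower in M for anti-HSF2 on Halo-HSF2 (3.96 to 2.66) and for Halo-H2DBD (3.25 to 2.76).

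**Figure D4:**
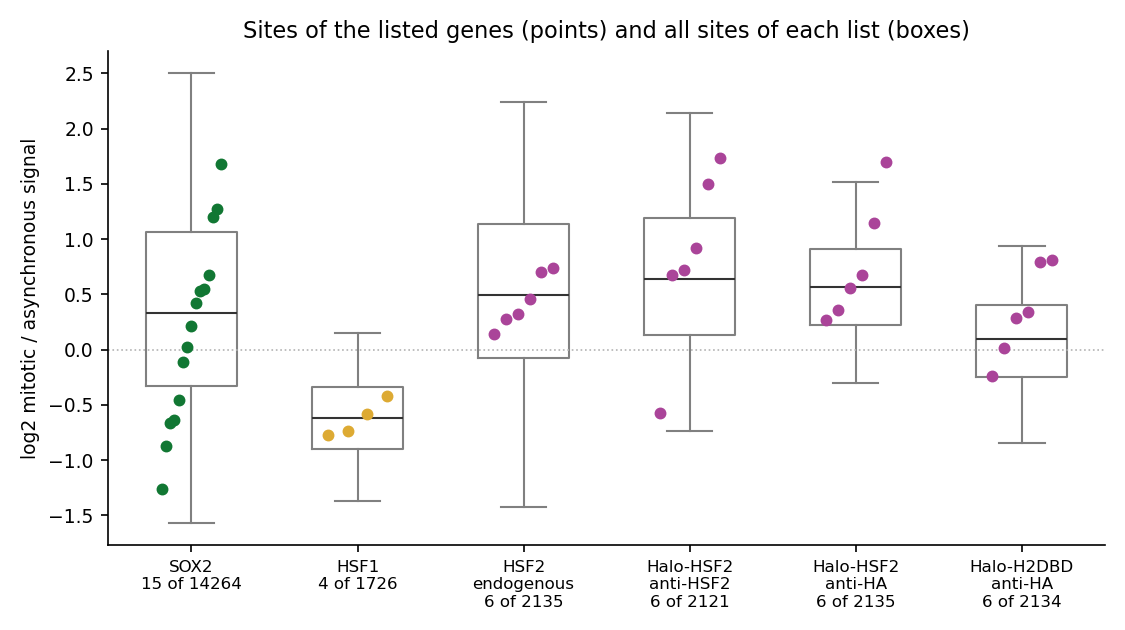
log2 of mitotic over asynchronous signal at the sites of the listed genes (points, placed from low to high) and at all sites of each list with a ratio (boxes: median and quartiles, whiskers: 5th to 95th percentile). Counts under each label are member sites of all sites with a ratio. The SOX2 points span the box from -1.26 to 1.68, the 4 HSF1 points lie below 0, and the Dusp6 point for Halo-HSF2 with anti-HA (1.70) lies above the upper whisker.

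Several of the sites overlapped an interval of another factor's list. HSF1 intervals overlapped 3 of the 15 SOX2 sites (3.97% of all SOX2 sites) and HSF2 intervals 4 of 15 (2.86%). Seen from the other lists, SOX2 overlapped 3 of the 4 HSF1 sites (32.7% of all) and 4 of the 6 HSF2 sites (19.1%). HSF1 and HSF2 overlapped at the distal Socs3 region and at the Spry2 start, which were 2 of 4 HSF1 sites (51.2%) and 2 of 6 HSF2 sites (40.7%). The HSF intervals are far longer than most SOX2 intervals, and genes were chosen by name, so these counts describe the 10 genes only.

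Log2 M/A, taken over each factor's whole interval, had the same sign in 4 of the 9 overlapping pairs and opposite signs in 5. At Lifr SOX2 and HSF1 were both lower in M (-0.45 and -0.78). At Id3 log2 M/A was 0.21 for SOX2 and -0.73 for HSF1. At the Stat3 start it was -0.66 for SOX2 and 0.33 for HSF2. At the Spry2 start HSF1 (-0.42) and HSF2 (0.70) had opposite signs, in intervals that shared 4081 bp. At the Spry4 and Dusp6 starts SOX2 and HSF2 were both higher in M, SOX2 with the larger log2 M/A (1.27 and 1.20 against 0.28 and 0.74).

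Motif matches were spread unevenly over the SOX2 sites. A SOX core was found in 9 of the 15 SOX2 sites and in 64.7% of all SOX2 intervals, with 15 matches in the long Lifr interval and 0 in 6 intervals, among them those of Id3, Stat3 and the Dusp6 start. The SOX-OCT composite was in 0 of 15 (9.36% of all). The octamer was in 3 of 15 (8.56%), in Lifr, Il6st and the distal Socs3 site. The ESRRB element was in 5 of 15 (6.03%), in Lifr, Il6st, both Socs3 sites and the nearer Spry2 site. The STAT element was in 4 of 15 (9.83%), in Lifr, distal Socs3, Id3 and the Spry4 start. The GC-rich SMAD element was in 0 of 15 (1.47%).

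The Lifr and distal Socs3 intervals are long and have more room for a match. In windows of 200 bp around each centre, the octamer was in 1 of 15 (7.79% of all), the ESRRB element in 3 of 15 (4.91%) and the STAT element in 3 of 15 (7.2%). Of the 4 HSF1 sites, that at Spry2 held a heat shock element (1 of 4, 16.0% of all HSF1 intervals), as did 0 of the 6 HSF2 sites (14.1%). The Spry2 element (chr14:105899946-105899958) lay 3127 bp upstream of the start and 269 bp outside the HSF2 interval. Of the 10 genes, 8 (all but Id1 and Spry4) were matched to a RefSeq promoter of 300 bases that spans the start (GRCm38.p6). Heat shock elements were in 0 of these 8 (0.603% of 32851 promoters) and STAT elements in 1, that of Socs3 (8.3%). The GC-rich SMAD element was in 3 of the 8, those of Id2, Lifr and Socs3 (11.9%).

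Other genes of the 3 pathways were taken from lists of 20 (LIF), 20 (BMP) and 26 (FGF) genes, also chosen with earlier results of these data known. In the LIF list, 15 of 20 genes had a SOX2 site, 3 an HSF1 site and 8 an HSF2 site, against 34.9%, 9.82% and 14.3% of all coding genes. Of its 20 SOX2 sites 16 had a ratio, and 9 of these were higher in M (63.4% of all sites with a ratio). Their median log2 M/A was 0.21 against 0.34. Sites without a ratio are outside these values, among them those of Gbx2, Klf4 and Stat5b. These had 0 in A and 0.747, 2.74 and 6.22 in M. Lif and Osm, neighbouring cytokine genes, shared a SOX2 site with 101.1 in A (rank 221) and 76.7 in M (rank 874), with log2 M/A at -0.40. The strongest site of Socs2, a relative of Socs3, had 33.7 in A and 57.5 in M, or 0.77 as log2 M/A. Among HSF2 sites, the strongest at Junb, an immediate early gene, had 10.8 in A (rank 309) and 29.1 in M (rank 58), and log2 M/A was 1.43.

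In the BMP list, 8 of 20 genes had a SOX2 site, 1 an HSF1 site and 4 an HSF2 site, beside the same shares of coding genes (34.9%, 9.82% and 14.3%). Of 13 SOX2 sites, 7 were higher in M (63.4% of all sites), with a median log2 M/A of 0.04 against 0.34. Smad6 and Smad7, inhibitors of the pathway, differed: the SOX2 site of Smad6 had 16.6 in A and 46.2 in M, or 1.48 as log2 M/A, and that of Smad7 had 21.4 in A and 13.6 in M (-0.66). Of the 5 HSF2 sites, 1 was higher in M (72.3% of all HSF2 sites) and 4 were lower, with a median log2 M/A of -0.72 against 0.49 over the list. The strongest, at Tbx3, a T-box factor gene that held 2 of the 5, had 16.5 in A (rank 155) and 2.25 in M (rank 2012), with log2 M/A at -2.87. In the strongest 25% of all HSF2 sites, 55.1% were higher in M, with a median log2 M/A of 0.11. HSF2 sites of the LIF list were higher in M at 7 of 9 (median 0.67), and those of the FGF list at 10 of 15 (median 0.44).

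In the FGF list, 18 of 26 genes had a SOX2 site, 5 an HSF1 site and 8 an HSF2 site (34.9%, 9.82% and 14.3% of coding genes). Of 68 SOX2 sites with a ratio, 48 were higher in M (63.4% of all sites) and 19 reached 1 (26.8%), with a median log2 M/A of 0.51 against 0.34. Fgfr2, an FGF receptor gene, alone held 25 of the 71 SOX2 sites, which the rule took from its whole body. It also held the strongest HSF1 site of the whole list in A, with 276.8 in A and 141.5 in M, or -0.97 as log2 M/A. Spry1, a relative of Spry2 and Spry4, had a SOX2 site with 25.4 in A and 62.7 in M, or 1.30 as log2 M/A. At Frs2, an adaptor of the FGF receptor, the values were 18.6 and 48.5 (1.38), and at Fgfr1 the strongest site had 22.1 and 51.3 (1.22). The strongest SOX2 site of Map2k1, which encodes an ERK kinase, was lower in M, at 30.4 and 14.3 (-1.09).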

How the data were processed

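CUT&Tag was compared between asynchronous and mitotic cells for SOX2, HSF1, endogenous HSF2 and 3 profiles of HSF2 constructs. The deposited values are coverage signal. Per the methods, the authors aligned reads to mm10 with Bowtie2, kept duplicates and scaled coverage by the Drosophila spike-in. The file headers mark each column as a mean track, read here as the mean of both libraries of a condition. HSF1 and HSF2 intervals came from SEACR, which was run against IgG, and SOX2 intervals from earlier published work. For HSF1 and HSF2 the authors combined the peaks of asynchronous and mitotic samples, so an interval can be listed through a single phase. With means only, depth is unknown, and wide intervals average signal over flanks.

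From these, log2 M/A and ranks over distinct intervals (6 repeated HSF2 rows were dropped) were computed with python 3.11.15, pandas 2.3.3, scipy 1.17.1 and pysam 0.24.0. Motifs were searched in GRCm38. Assignment was tested on simulated data, where 30 of 30 planted intervals and 600 of 600 planted motifs were recovered. The members and lists were chosen with earlier results of these data known. Values are given for every member site, and for other pathway genes those named were picked after their values were seen.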

Additional observations from a re-analysis of the deposited data

How the results depend on the processing

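No paired analysis was possible because the tables hold the authors' averages of both libraries, and no library could be left out for the same reason. Over 78 alternatives (windows of 10 and 50 kb, no gene body, nearest start only, pseudocounts of 0.1 and 1, a minimum mean of 1, intervals merged, 1 value per gene, centring on the list and the other deposited means), 73 stayed within the interval over sites or within 1.5 times the count, 3 left it and 2 changed sign. Many alternatives left the sites as they were. For SOX2 the 10 kb window, no gene body, nearest start, minimum mean and merging gave the same 15 sites and a median of 0.21. For HSF1 and endogenous HSF2 these and the 50 kb window changed nothing. Such alternatives could not differ, so the 73 of 78 is not a measure of robustness. Minus the median of all sites, the median log2 M/A turned to -0.12 for SOX2 and -0.10 for endogenous HSF2, and was -0.036 for HSF1 and 0.049 for Halo-HSF2 with anti-HA. The change by centring follows from its construction. With 1 value per gene, the SOX2 median fell from 0.21 to 0.040. This lay inside the wide interval over sites (-0.64 to 0.68), which takes sites as independent and is no measure of uncertainty between libraries. With the means of the authors' interval list the HSF1 median was -2.52, and the cause was not tested. Depth is unknown at every site, and 3 SOX2 sites were under 100 bp wide.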

Other observations

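Between 20 and 50 kb from the starts and outside the gene records, 16 further SOX2 sites and no HSF1 or HSF2 site were found. Spry4 had 5 of them, Spry2 3, Il6st, Id1 and Id2 2 each, and Lifr and Socs3 1 each. With these included, the median log2 M/A over 31 SOX2 sites was 0.23, and 61.3% were higher in M.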
